A study of Homo sapiens with 6 samples.

Results

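Translation initiation factors (eIFs) are the proteins that bring the initiator tRNA, the small ribosomal subunit and an mRNA together and place them at a start codon. Their genes were taken as every row of the deposited tables whose symbol begins with EIF and a digit, without the EIF2AK kinases and without hyphenated names. This gave 49 of 17452 genes, and 4 EIF2AK genes were left out. Of the 49 genes, 46 reached the level set for testing, and the 3 that did not are described by their values only.

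The study used RNA sequencing to ask which transcripts depend on PHF20L1, a chromatin-associated reader of methylated lysines that has a Tudor and a PHD domain. MDA-MB-231 cells, an established human line from a triple-negative breast tumour, had been transfected with an siRNA against PHF20L1 (siPHF20L1, 3 libraries) or with a control siRNA (siControl, 3 libraries). Both groups were the same parental line grown in L-15 medium with serum and received a lipid transfection reagent. The siRNA sequences and the hours between transfection and harvest are not given in the sources used here. The labels do not state whether the libraries of 1 group are separate cultures, so p-values measure only the spread between these libraries, which may be technical.

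In the first step of initiation, eIF2 carries the initiator tRNA as a complex with GTP, and eIF2B recharges eIF2 with GTP after each round. The large complex eIF3 and the small factors eIF1 and eIF1A hold the small subunit ready for scanning, while eIF4E, eIF4G and eIF4A bind the cap and unwind the leader of the mRNA. After the start codon is found, eIF5 and eIF5B complete the joining of the large subunit. Cells tune the pathway mostly by phosphorylating eIF2 and by 4E-binding proteins that occupy eIF4E, and breast tumours often carry altered levels of eIF3 subunits, eIF4E or its binding proteins.

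Values are FPKM, that is, fragment numbers divided by transcript length and library depth, so levels of different genes are set side by side per length. Low FPKM moved in steps that put the depth at 17100000 to 17560000 fragments per library, where 1 fragment in a transcript of 1 kb was worth 0.0569 to 0.0585 FPKM. PHF20L1 itself had 2.67, 2.31 and 2.74 FPKM in the siPHF20L1 libraries, against 15.8, 12.5 and 12.7 FPKM in the siControl libraries (log2 difference -2.03, SE 0.10, limma, adjusted p = 1.462e-06). Every library followed its label. Of the markers of the line, VIM, CD44 and EGFR averaged 1015, 139.6 and 66.7 FPKM in siPHF20L1 and 1624, 140.7 and 68.9 FPKM in siControl libraries. ESR1 was listed at 0 in all 6 libraries, and PGR and CDH1 stayed at or below 0.05 and 0.45 FPKM. ERBB2 was not low at the RNA level (30.8 FPKM in siPHF20L1, 25.9 FPKM in siControl libraries), and EPCAM averaged 4.31 FPKM in siPHF20L1 and 2.20 FPKM in siControl libraries. The libraries numbered 1 stood apart in both groups: between a library numbered 1 and another of its group the SD of the eIF genes' log2 difference was 0.164 to 0.191, and between those numbered 2 and 3 it was 0.0529 to 0.0576. Differences within the number 1 and within the numbers 2 and 3 were therefore computed for each eIF gene. All 28 genes past the threshold had the same sign in both, as did 44 of all 46 tested eIF genes. The 28 were picked on these same libraries, so their agreement is no independent check.

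The eIF genes did not move as a block. With limma and a threshold of 0.05 on the p-value adjusted over all genes tested, 28 of the 46 tested eIF genes passed (60.9%), where 58.6% of all 11560 tested genes passed. The share of eIF genes past the threshold was thus near that of the transcriptome. In siPHF20L1 libraries 11 of the 46 tested eIF genes stood higher (23.9%), beside 34.0% of all tested genes, and 17 of the 46 stood lower (37.0%), beside 24.7% of all tested genes. With quantile normalization the genes past the threshold in the whole table split into 3354 higher and 3495 lower, and the eIF genes into 12 higher and 18 lower. With median-ratio size factors the split was 3318 higher and 3539 lower over all genes, and 8 higher and 19 lower over the eIF genes. The median log2 difference of the 46 eIF genes was -0.08, beside 0.05 for all tested genes, both on the log2(FPKM + 1) scale that holds for every log2 difference given here. In 30 tested eIF genes the 3 siPHF20L1 values did not overlap the 3 siControl values, and the same held for 63.7% of all tested genes. With the replicate number as a block, 17 eIF genes were higher and 22 lower, and genes that passed only with the block are named with that value below.

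Most differences were small. Of the 28 genes, 25 differed by less than 2-fold, and 3 by at least 2-fold: EIF3F was higher, and EIF2S2 and EIF5A2 were lower in siPHF20L1 libraries. These are 3 of the 46 tested eIF genes. Over all tested genes, 604 of 11560 (5.22%) passed and differed by at least 2-fold. The summed level of all 49 genes was 4883 ± 56.4 FPKM in siPHF20L1 and 4809 ± 81.1 FPKM in siControl libraries (SD, n = 3 each). These sums overlapped, and the difference did not reach the smallest two-sided p of 0.1 that an exact permutation test of 3 against 3 can give (p = 0.3). As a share of the FPKM sum of each library, the 49 genes made up 1.208 ± 0.00757% in siPHF20L1 and 1.176 ± 0.0152% in siControl libraries (SD, n = 3 each). These shares did not overlap (exact permutation test, p = 0.1). Because bulk RNA was measured, fewer cells of a kind and less RNA per cell cannot be told apart in any of these values.

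**Figure D1:**
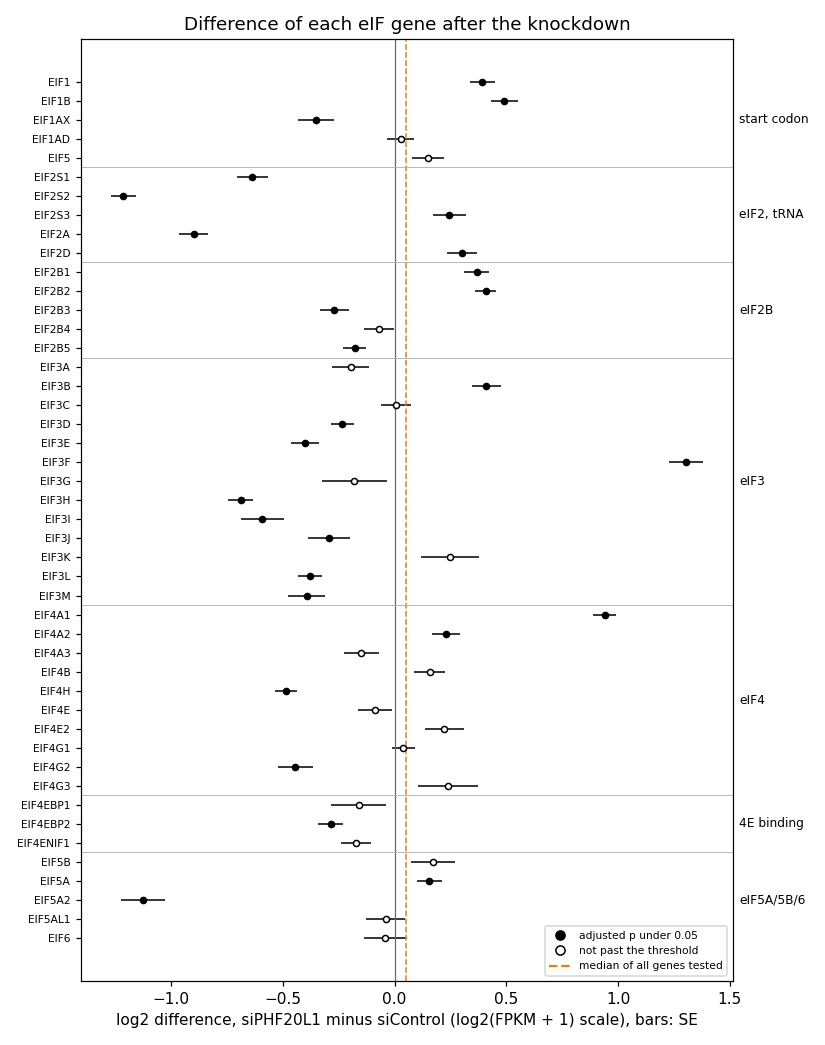
Log2 difference (siPHF20L1 minus siControl, log2(FPKM + 1) scale) of each of the 46 tested eIF genes, grouped by role, with bars for the SE from limma and filled points for adjusted p under 0.05. The dashed line is the median of all tested genes at 0.05. EIF3F (1.31) and EIF4A1 (0.94) lie far to the right, and EIF2S2 (-1.21), EIF5A2 (-1.13) and EIF2A (-0.90) far to the left.

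The levels spanned more than the differences between groups did. EIF5A, the factor that helps ribosomes through difficult peptide bonds, was the highest eIF transcript in both groups at 531.8 ± 9.29 FPKM in siPHF20L1 and 477.6 ± 16.9 FPKM in siControl libraries (SD, n = 3 each). In siPHF20L1 libraries EIF1, EIF4G1, EIF3F, EIF4G2 and EIF4A1 followed, with means of 356, 326, 289.8, 282 and 277 FPKM. The last 3 of these were not separated from each other beyond the spread of their libraries. In siControl libraries EIF4G2, EIF4G1, EIF1 and EIF6 followed EIF5A, with means of 384, 317, 270.6 and 227 FPKM. In siControl libraries 18 of the 49 genes averaged more than 100 FPKM and 7 less than 10 FPKM. EIF4E, the cap-binding protein itself, was among these low ones at 6.78 ± 0.466 FPKM in siPHF20L1 and 7.27 ± 0.468 FPKM in siControl libraries (SD, n = 3 each), while its scaffold EIF4G1 stood 48.3 times as high in siPHF20L1 and 43.8 times as high in siControl libraries.

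**Figure D2:**
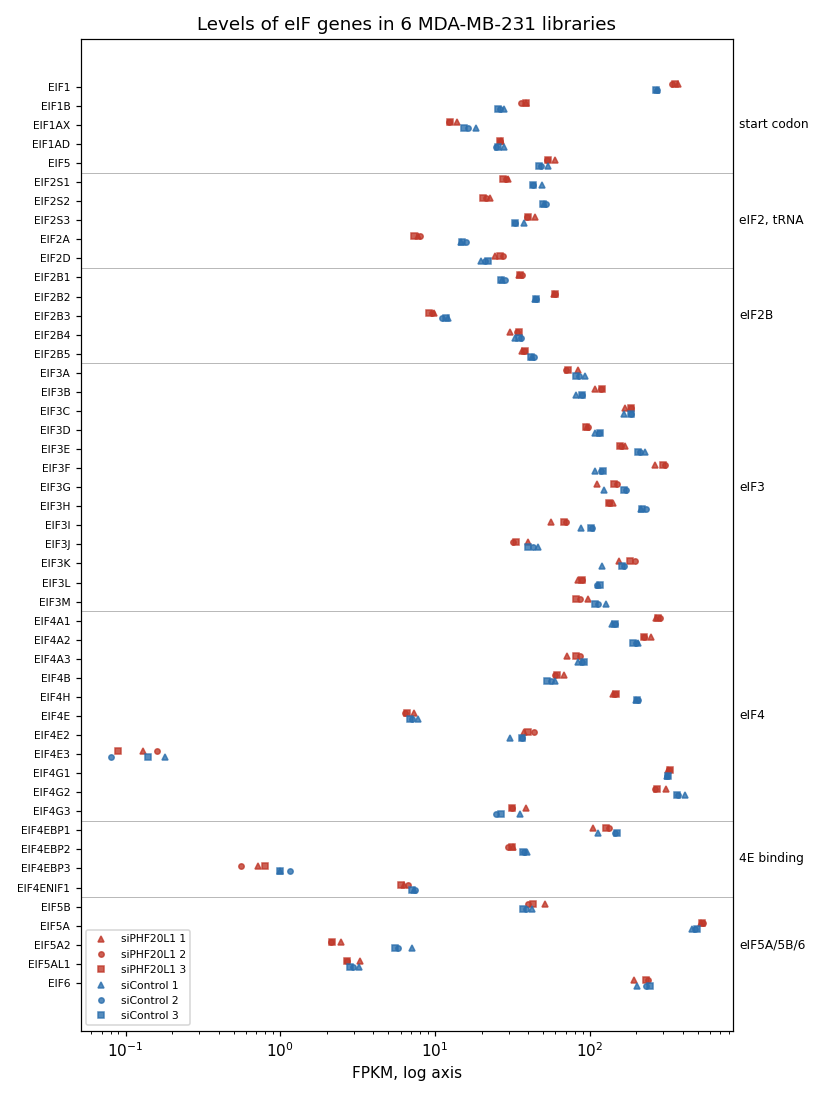
FPKM of each eIF gene in each library (log axis, red for siPHF20L1, blue for siControl, a marker shape for each replicate number), grouped by role; EIF3CL, at 0 in 5 of the 6 libraries, is not drawn. EIF5A averages 532 and 478 FPKM and EIF4E 6.78 and 7.27 FPKM in siPHF20L1 and siControl libraries, while EIF3F, EIF4A1, EIF2S2, EIF2A and EIF5A2 show separated colours.

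Of the 5 tested factors of start codon selection, 2 were higher, 1 was lower and 2 did not pass. The share past the threshold was 60%, beside 58.6% of all tested genes. EIF1, which keeps the scanning complex open until a start codon is met, had 372, 341 and 355 FPKM in siPHF20L1 libraries, against 271, 273 and 267 FPKM in siControl libraries. All siPHF20L1 values lay above all siControl values, a 1.31-fold difference (log2 difference 0.39, SE 0.06, limma, adjusted p = 0.0004097). EIF1B, a close relative of EIF1 made from another gene, had 39.0, 35.8 and 38.6 FPKM in siPHF20L1 libraries, against 27.8, 26.5 and 25.5 FPKM in siControl libraries. The groups did not overlap, and the difference was 1.42-fold (log2 difference 0.49, SE 0.06, limma, adjusted p = 0.0001876). EIF1AX, the X-linked gene of eIF1A, which binds the small subunit beside eIF1, was lower, at 13.9, 12.3 and 12.5 FPKM against 18.4, 16.4 and 15.5 FPKM in siControl libraries. Its groups did not overlap either (log2 difference -0.35, SE 0.08, limma, adjusted p = 0.005336).

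EIF5 promotes GTP hydrolysis by eIF2 at the start codon. It averaged 55.5 ± 3.99 FPKM in siPHF20L1 and 49.9 ± 3.58 FPKM in siControl libraries (SD, n = 3 each), and the groups overlapped (log2 difference 0.15, limma, adjusted p = 0.1116). It passed with the replicate block (limma, adjusted p = 0.001588) and without siControl 1 (limma, adjusted p = 0.03218). The ratio of EIF1 to EIF5, whose products counteract each other in start codon choice, was 6.42 ± 0.218 in siPHF20L1 and 5.44 ± 0.364 in siControl libraries (SD, n = 3 each). These ratios did not overlap, with the smallest p the exact permutation test allows (0.1). EIF1AD, named for its eIF1A-like domain, overlapped between groups, at 26.5 FPKM in siPHF20L1 and 26.1 FPKM in siControl libraries (limma, adjusted p = 0.7297).

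Of the 5 genes of eIF2 and other tRNA carriers, 3 were lower and 2 higher, and none overlapped between groups. Over all tested genes 58.6% passed and 63.7% did not overlap, and 5 genes are a small number. EIF2S2, the beta subunit of eIF2, which contacts eIF5 and eIF2B, had 22.5, 21.3 and 20.4 FPKM in siPHF20L1 libraries, against 50.9, 52.2 and 49.9 FPKM in siControl libraries. All 3 siPHF20L1 values lay far below all siControl values, a 2.38-fold difference of the means. The fitted log2 difference was -1.21 (SE 0.06, limma, adjusted p = 1.263e-06), and it was -1.14 within the number 1 and -1.25 within the numbers 2 and 3. EIF2S1, the alpha subunit that carries the regulatory phosphorylation site, had 29.9, 28.9 and 27.5 FPKM in siPHF20L1 libraries, against 49.4, 43.2 and 43.3 FPKM in siControl libraries. It was lower without overlap (log2 difference -0.64, SE 0.07, limma, adjusted p = 8.798e-05). In the reference annotation its exons share 269 bases with those of ATP6V1D on the opposite strand, and whether the authors' counting used strand is not given in the sources used here.

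The gamma subunit, EIF2S3, which binds GTP and the tRNA, went the other way, at 44.1, 39.6 and 39.7 FPKM in siPHF20L1 libraries against 37.9, 33.0 and 32.8 FPKM in siControl libraries. The groups did not overlap (log2 difference 0.25, SE 0.07, limma, adjusted p = 0.02048). The call was lost without siControl 2 (limma, adjusted p = 0.0786) and without siControl 3 (limma, adjusted p = 0.07432). The 3 subunits form a complex with 1 copy of each, and their transcripts were compared within each library. EIF2S2 over EIF2S3 was 0.511, 0.538 and 0.515 in siPHF20L1 libraries, against 1.34, 1.58 and 1.52 in siControl libraries. EIF2S1 over EIF2S3 was 0.677, 0.730 and 0.692 in siPHF20L1 libraries, against 1.31, 1.31 and 1.32 in siControl libraries. Neither ratio overlapped between groups (exact permutation test, p = 0.1 each, the smallest possible). In siPHF20L1 libraries EIF2S3 was thus the highest of the 3 transcripts, and in siControl libraries it was the lowest. All ratios given here were chosen after the values were seen.

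EIF2A and EIF2D encode single-chain proteins that can deliver tRNA to the ribosome without eIF2. EIF2A had 7.81, 7.98 and 7.32 FPKM in siPHF20L1 libraries, against 14.84 to 15.83 FPKM in the 3 siControl libraries. It was lower in every library (log2 difference -0.90, SE 0.06, limma, adjusted p = 9.108e-06), and its exons share 153 bases with SERP1 on the opposite strand. EIF2D had 24.5, 27.4 and 26.3 FPKM in siPHF20L1 libraries, against 19.8, 21.1 and 21.9 FPKM in siControl libraries. It was higher without overlap (log2 difference 0.30, SE 0.07, limma, adjusted p = 0.004414).

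The 5 subunits of eIF2B, the exchange factor that recharges eIF2 and is blocked by phosphorylated eIF2, split 2 higher, 2 lower and 1 not past the threshold. Thus 80% of these subunits passed, beside 58.6% of all tested genes. The higher ones belong to the regulatory part that senses the phosphorylation. EIF2B1 averaged 35.6 ± 0.878 FPKM in siPHF20L1 and 27.4 ± 0.881 FPKM in siControl libraries, and EIF2B2 averaged 59.6 ± 0.364 FPKM in siPHF20L1 and 44.7 ± 0.619 FPKM in siControl libraries (SD, n = 3 each). Both were separated without overlap, with log2 differences of 0.37 for EIF2B1 and 0.41 for EIF2B2 (limma, adjusted p = 0.0005121 and 0.0001467). EIF2B4, the remaining regulatory subunit, had 30.4, 34.0 and 34.7 FPKM in siPHF20L1 libraries, against 33.1, 35.9 and 35.1 FPKM in siControl libraries, and did not pass with or without the block (limma, adjusted p = 0.3877 without it).

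The lower eIF2B genes were the catalytic pair. EIF2B3 averaged 9.52 ± 0.355 FPKM in siPHF20L1 and 11.7 ± 0.525 FPKM in siControl libraries (SD, n = 3 each; log2 difference -0.27, limma, adjusted p = 0.007039). EIF2B5, whose product carries the exchange activity, averaged 37.4 ± 0.850 FPKM in siPHF20L1 and 42.5 ± 0.958 FPKM in siControl libraries (SD, n = 3 each; log2 difference -0.18, limma, adjusted p = 0.01639). Neither gene overlapped between groups. The EIF2B5 call was lost without siPHF20L1 2 (limma, adjusted p = 0.054) and without siControl 2 (limma, adjusted p = 0.07148). Values of every eIF2B gene are uncertain in that their exons overlap genes on the opposite strand. EIF2B1 shares 536 bases with DDX55, and EIF2B2 shares 1098 bases with AL049780.3. EIF2B3 shares 347 bases with CCNB1IP1P1, EIF2B4 199 with AC074117.1 and EIF2B5 68 with AC131235.3.

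Among the 13 tested subunits of eIF3, the scaffold that holds the small subunit, the mRNA and the other factors together, 2 were higher, 7 lower and 4 did not pass. This was 15.4% higher and 53.8% lower, beside 34.0% and 24.7% of all tested genes. EIF3F, the f subunit, which belongs to the pair of subunits with an MPN domain, stood apart. It had 265, 306 and 299 FPKM in siPHF20L1 libraries, against 108, 119 and 123 FPKM in siControl libraries. The lowest siPHF20L1 value was more than 2-fold the highest siControl value, and the groups differed 2.49-fold (log2 difference 1.31, SE 0.08, limma, adjusted p = 3.06e-06). The log2 difference was 1.29 within the number 1 and 1.31 within the numbers 2 and 3. No gene with exons on the opposite strand overlaps EIF3F in the reference annotation.

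EIF3F ranked 1 among the 13 subunits in each siPHF20L1 library, and it ranked 9, 6 and 6 in siControl libraries 1, 2 and 3. Its level over the median of the other 12 subunits was 2.58, 2.83 and 2.77 in siPHF20L1 libraries, against 0.921, 1.04 and 1.05 in siControl libraries. It made up 17.6 ± 0.718% of the summed eIF3 level in siPHF20L1 and 6.89 ± 0.251% in siControl libraries (SD, n = 3 each). Neither measure overlapped between groups (exact permutation test, p = 0.1 each, the smallest possible). The highest siControl subunits were EIF3E in library 1 and EIF3H in libraries 2 and 3. Without EIF3F, the spread between the highest and the lowest subunit was 5.31 ± 0.974-fold in siPHF20L1 and 5.23 ± 0.268-fold in siControl libraries (SD, n = 3 each), and overlapped (exact permutation test, p = 0.8).

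**Figure D3:**
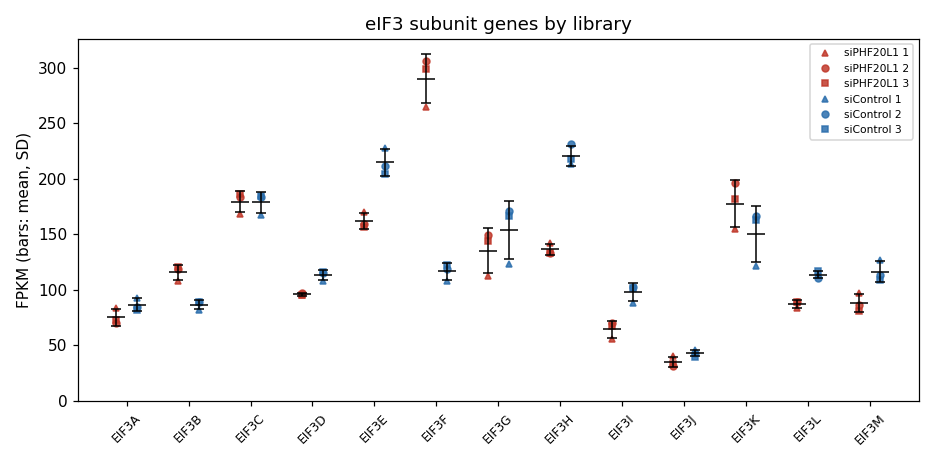
FPKM of the 13 tested eIF3 subunit genes in each library (red for siPHF20L1, blue for siControl, a marker shape for each replicate number), with bars for mean and SD. EIF3F averages 289.8 FPKM in siPHF20L1 and 117 FPKM in siControl libraries and is the only subunit gene among these 13 above 250 FPKM in any library.

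The promoters of 4 of the eIF genes with large differences are shown here because the study looked for transcriptional targets, and they let the start of each gene be read beside its values. They are RefSeq sequences of build GRCh38.p14 from 250 bases before to 50 bases after the annotated start, printed 5′ to 3′ on the strand of the gene. EIF3F lies at chr11:7987087-7987386 (plus strand), EIF4A1 at chr17:7572575-7572874 (plus strand), EIF2A at chr3:150546537-150546836 (plus strand) and EIF5A2 at chr3:170908588-170908887 (minus strand). Capitals mark matches on either strand to the ETS core CCGGAAG and to the E-box CACGTG, which reads the same on both strands. The 2 motifs share no bases in these windows. No promoter was matched for EIF2S2, the eIF gene with the lowest log2 difference, so none is shown.
EIF3F promoter: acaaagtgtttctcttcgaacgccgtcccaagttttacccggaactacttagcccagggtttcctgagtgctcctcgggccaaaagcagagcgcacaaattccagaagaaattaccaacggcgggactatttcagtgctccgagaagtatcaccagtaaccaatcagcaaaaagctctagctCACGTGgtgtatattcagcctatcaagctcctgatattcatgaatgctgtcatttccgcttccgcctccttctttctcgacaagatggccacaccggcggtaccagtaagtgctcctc
EIF4A1 promoter: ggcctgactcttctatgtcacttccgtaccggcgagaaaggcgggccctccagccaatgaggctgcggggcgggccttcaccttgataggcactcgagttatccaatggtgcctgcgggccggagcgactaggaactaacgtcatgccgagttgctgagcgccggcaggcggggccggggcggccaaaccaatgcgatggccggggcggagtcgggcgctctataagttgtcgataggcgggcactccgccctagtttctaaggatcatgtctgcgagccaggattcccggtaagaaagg
EIF2A promoter: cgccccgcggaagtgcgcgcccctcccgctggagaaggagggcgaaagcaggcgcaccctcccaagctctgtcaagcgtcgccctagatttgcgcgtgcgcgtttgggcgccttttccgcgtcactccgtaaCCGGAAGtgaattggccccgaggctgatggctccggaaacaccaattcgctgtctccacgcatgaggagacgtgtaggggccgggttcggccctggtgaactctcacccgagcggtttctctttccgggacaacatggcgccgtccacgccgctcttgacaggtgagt
EIF5A2 promoter: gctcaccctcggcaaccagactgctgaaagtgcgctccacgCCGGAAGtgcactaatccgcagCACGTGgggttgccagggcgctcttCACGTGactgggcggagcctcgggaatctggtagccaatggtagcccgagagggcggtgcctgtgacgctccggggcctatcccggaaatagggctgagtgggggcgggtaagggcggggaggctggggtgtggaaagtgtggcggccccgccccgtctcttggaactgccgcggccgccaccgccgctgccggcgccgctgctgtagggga
The EIF3F window holds 1 CACGTG, beginning at base -68 from the start. That of EIF2A holds 1 CCGGAAG at base -118, and that of EIF5A2 holds 1 CCGGAAG and 2 CACGTG. Over all 35116 promoters of the table, 10.3% hold CCGGAAG and 7.26% hold CACGTG, and over the tested genes the shares are 23.7% and 12.8%. Of 41 eIF genes with a promoter in the table, 11 hold CCGGAAG and 11 hold CACGTG. Among the tested eIF genes with a promoter, CCGGAAG stood in 3 of 11 that were higher, 5 of 13 that were lower and 3 of 15 that did not pass, and CACGTG in 2, 3 and 5 of them. A match is a run of letters and not a measured site.

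The other higher eIF3 gene was EIF3B, part of the core that also holds EIF3A and EIF3C. EIF3B had 108, 118 and 121 FPKM in siPHF20L1 libraries, against 82.1, 89.0 and 89.2 FPKM in siControl libraries, with no overlap (log2 difference 0.41, SE 0.06, limma, adjusted p = 0.000699). EIF3A averaged 75.5 ± 7.54 FPKM in siPHF20L1 and 86.5 ± 5.90 FPKM in siControl libraries (SD, n = 3 each), and overlapped (log2 difference -0.20, limma, adjusted p = 0.06791). It passed with the replicate block (limma, adjusted p = 0.000535) and without siPHF20L1 1 (limma, adjusted p = 0.007816). EIF3C had nearly the same level in both groups, 179 ± 9.75 FPKM in siPHF20L1 and 179 ± 9.73 FPKM in siControl libraries (SD, n = 3 each). EIF3C has a near-identical copy, EIF3CL, which was listed at 2.09 FPKM in siPHF20L1 2 and at 0 in the other 5 libraries, so reads of the pair may have been assigned to either.

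EIF3H, the partner of EIF3F among the MPN-domain subunits, was lower. It had 142, 133 and 134 FPKM in siPHF20L1 libraries, against 214, 231 and 217 FPKM in siControl libraries, with no overlap. This was a log2 difference of -0.69 (SE 0.06, limma, adjusted p = 1.994e-05). EIF3I, a ring-shaped WD-repeat subunit, had 56.0, 70.2 and 67.8 FPKM in siPHF20L1 libraries, against 88.6, 102.9 and 102.0 FPKM in siControl libraries. It was also lower without overlap (log2 difference -0.59, SE 0.10, limma, adjusted p = 0.0008205).

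Of the 6 subunits with a PCI domain, EIF3E, EIF3L and EIF3M were lower, and EIF3A, EIF3C and EIF3K did not pass. EIF3E averaged 162 ± 7.21 FPKM in siPHF20L1 and 215 ± 11.9 FPKM in siControl libraries (SD, n = 3 each; log2 difference -0.40, limma, adjusted p = 0.0006647). EIF3L averaged 87.3 ± 3.22 FPKM in siPHF20L1 and 113.8 ± 3.15 FPKM in siControl libraries (SD, n = 3 each; log2 difference -0.38, limma, adjusted p = 0.0004051). EIF3M averaged 88.3 ± 8.18 FPKM in siPHF20L1 and 116.3 ± 9.43 FPKM in siControl libraries (SD, n = 3 each; log2 difference -0.39, limma, adjusted p = 0.003541). In all 3 genes the groups did not overlap. EIF3M shares 742 exonic bases with CCDC73 and EIF3L 460 with ANKRD54, each on the opposite strand.

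EIF3D, a cap-binding subunit at the edge of the complex, averaged 96.1 ± 1.31 FPKM in siPHF20L1 and 113.2 ± 4.37 FPKM in siControl libraries (SD, n = 3 each; log2 difference -0.23, limma, adjusted p = 0.004877). Its groups did not overlap. EIF3J, a loosely attached subunit, had 40.2, 32.0 and 33.4 FPKM in siPHF20L1 libraries, against 46.3, 43.3 and 40.1 FPKM in siControl libraries. It is the only one of the 28 genes whose groups overlapped (log2 difference -0.29, SE 0.09, limma, adjusted p = 0.02348). The call was lost without siPHF20L1 2 (limma, adjusted p = 0.08422), siPHF20L1 3 (0.08326), siControl 1 (0.05689) or siControl 2 (0.06507).

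EIF3G, an RNA-binding subunit, and EIF3K, a small PCI-domain subunit, varied widely between libraries of 1 group. EIF3G had 112, 149.7 and 144 FPKM in siPHF20L1 libraries, against 123, 171 and 167 FPKM in siControl libraries. In both groups the library numbered 1 was far below the others, so that the groups overlapped (log2 difference -0.18, SE 0.14, limma, adjusted p = 0.309), while within each number the siPHF20L1 value was lower. It passed with the block (limma, adjusted p = 0.0004708) and without siControl 1 (limma, adjusted p = 0.03335). EIF3K had 154.8, 196 and 182 FPKM in siPHF20L1 libraries, against 121, 166 and 163 FPKM in siControl libraries. It was higher within each number, but the groups overlapped (log2 difference 0.25, SE 0.13, limma, adjusted p = 0.1358). It passed with the block (limma, adjusted p = 0.0002327) and without siPHF20L1 1 (limma, adjusted p = 0.04314). Summed over the subunits other than EIF3F, eIF3 transcripts came to 1354 ± 38.8 FPKM in siPHF20L1 and 1575 ± 57.5 FPKM in siControl libraries, and with EIF3F to 1644 ± 60.4 FPKM in siPHF20L1 and 1692 ± 64.3 FPKM in siControl libraries (SD, n = 3 each).

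Of the 10 tested genes for cap binding and unwinding, 2 were higher, 2 lower and 6 did not pass. The share that passed was 40%, beside 58.6% of all tested genes. EIF4A1, the main RNA helicase of the cap complex, had 270.2, 287 and 275 FPKM in siPHF20L1 libraries, against 140.4, 146 and 146 FPKM in siControl libraries. The groups were far apart, at 1.92-fold (log2 difference 0.94, SE 0.05, limma, adjusted p = 2.729e-06), and the log2 difference was 0.94 both within the number 1 and within the numbers 2 and 3. The annotated exons of EIF4A1 share 1586 bases on the same strand with the readthrough transcript SENP3-EIF4A1 and hold snoRNA genes, so that these values may include fragments of either.

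EIF4A2, the second isoform of the helicase, had 249.8, 223 and 226 FPKM in siPHF20L1 libraries, against 205, 199 and 191 FPKM in siControl libraries. It was 1.18-fold higher without overlap (log2 difference 0.23, SE 0.06, limma, adjusted p = 0.0128), and the call was lost without siControl 3 (limma, adjusted p = 0.05468). EIF4A1 over EIF4A2 was 1.08, 1.29 and 1.22 in siPHF20L1 libraries, against 0.685, 0.735 and 0.766 in siControl libraries. EIF4A1 was thus the more abundant isoform in each siPHF20L1 library and EIF4A2 in each siControl library (exact permutation test, p = 0.1, the smallest possible). The annotated exons of EIF4A2 also hold snoRNA genes and share 435 bases with AC112907.3 on the opposite strand, so the order of the isoforms is uncertain. EIF4A3, a related helicase that belongs to the exon junction complex, averaged 79.8 ± 7.77 FPKM in siPHF20L1 and 88.4 ± 4.38 FPKM in siControl libraries (SD, n = 3 each). It overlapped (log2 difference -0.15, limma, adjusted p = 0.1327) and passed with the block (limma, adjusted p = 0.005481).

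**Figure D4:**
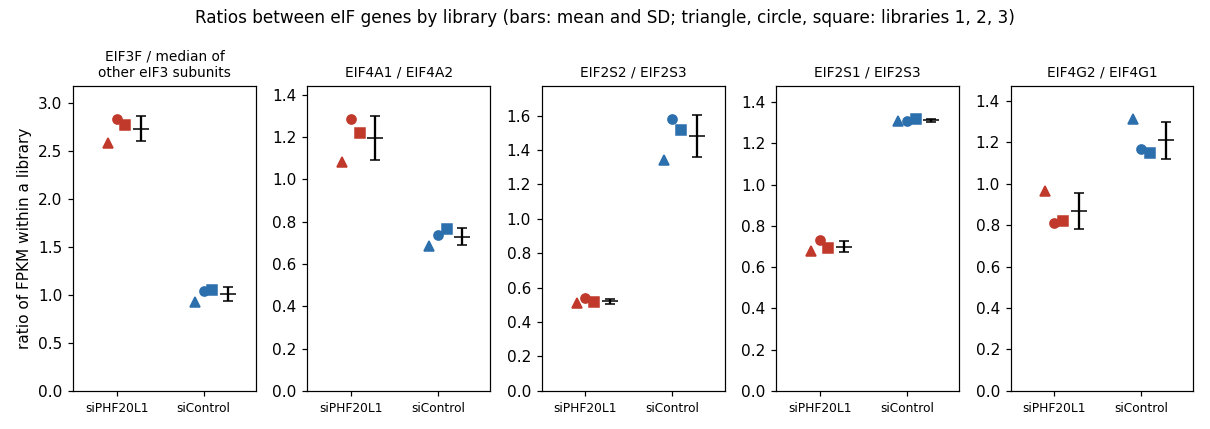
Ratios of FPKM between eIF genes within each library (axes start at 0), siPHF20L1 in red and siControl in blue, a marker shape for each replicate number, bars for mean and SD. EIF3F over the median of the other 12 eIF3 subunits is 2.73 in siPHF20L1 and 1.01 in siControl libraries, EIF2S2 over EIF2S3 is 0.521 in siPHF20L1 and 1.48 in siControl libraries, and no ratio shown overlaps between groups.

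The helicase has the helper proteins EIF4B and EIF4H. EIF4H had 140.8, 145 and 147 FPKM in siPHF20L1 libraries, against 199, 205 and 203 FPKM in siControl libraries. It was lower without overlap (log2 difference -0.49, SE 0.05, limma, adjusted p = 6.674e-05). EIF4B averaged 63.2 ± 4.32 FPKM in siPHF20L1 and 56.6 ± 3.33 FPKM in siControl libraries (SD, n = 3 each) and overlapped (log2 difference 0.16, limma, adjusted p = 0.08124). EIF4B passed with the block (limma, adjusted p = 0.002313) and without siControl 1 (limma, adjusted p = 0.03911). It shares 733 exonic bases with AC068888.1 on the opposite strand.

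EIF4G2, a scaffold related to EIF4G1 that lacks the eIF4E-binding part, had 309.9, 264 and 273 FPKM in siPHF20L1 libraries, against 413, 372 and 367 FPKM in siControl libraries. It was lower without overlap (log2 difference -0.44, SE 0.08, limma, adjusted p = 0.001358). EIF4G1 had 320.4, 325 and 333 FPKM in siPHF20L1 libraries, against 314, 319 and 319.6 FPKM in siControl libraries. Its groups did not overlap, but the difference was 0.04 on the log2 scale and did not pass (limma, adjusted p = 0.5496). EIF4G2 over EIF4G1 was 0.867 ± 0.0871 in siPHF20L1 and 1.21 ± 0.0902 in siControl libraries (SD, n = 3 each; exact permutation test, p = 0.1, the smallest possible). The third scaffold gene, EIF4G3, averaged 34.0 ± 4.33 FPKM in siPHF20L1 and 28.9 ± 5.61 FPKM in siControl libraries (SD, n = 3 each) and overlapped (log2 difference 0.24, limma, adjusted p = 0.157). It passed with the block (limma, adjusted p = 0.0004381) and without siControl 1 (limma, adjusted p = 0.009491).

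The cap-binding genes themselves did not pass. EIF4E had 7.31, 6.45 and 6.57 FPKM in siPHF20L1 libraries, against 7.79, 7.12 and 6.89 FPKM in siControl libraries, with overlap (log2 difference -0.09, limma, adjusted p = 0.35). EIF4E2, a cap-binding relative that represses translation, averaged 40.4 ± 2.95 FPKM in siPHF20L1 and 34.5 ± 3.55 FPKM in siControl libraries (SD, n = 3 each). Its groups did not overlap (log2 difference 0.22, limma, adjusted p = 0.0543), and it passed with the block (limma, adjusted p = 0.0004941) and without siPHF20L1 1 (limma, adjusted p = 0.02669). EIF4E2 shares 541 exonic bases with TIGD1 on the opposite strand. EIF4E3 was not tested, at 0.09 to 0.16 FPKM in siPHF20L1 and 0.08 to 0.18 FPKM in siControl libraries, a level of only a few fragments.

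The 4E-binding proteins occupy eIF4E until mTORC1 phosphorylates them, and EIF4ENIF1 carries eIF4E into the nucleus and to P-bodies. EIF4EBP2 had 31.9, 29.6 and 31.6 FPKM in siPHF20L1 libraries, against 39.5, 37.8 and 36.9 FPKM in siControl libraries, and was lower without overlap (log2 difference -0.29, SE 0.06, limma, adjusted p = 0.002657). EIF4EBP1 was the most abundant of them at 122 ± 14.7 FPKM in siPHF20L1 and 137 ± 20.5 FPKM in siControl libraries (SD, n = 3 each), and overlapped (log2 difference -0.16, limma, adjusted p = 0.2876). It passed with the block (limma, adjusted p = 0.001619) and without siControl 1 (limma, adjusted p = 0.02839). EIF4ENIF1 averaged 6.34 ± 0.335 FPKM in siPHF20L1 and 7.27 ± 0.185 FPKM in siControl libraries (SD, n = 3 each) without overlap (log2 difference -0.17, limma, adjusted p = 0.05669), and passed with the block (limma, adjusted p = 0.011).

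EIF4EBP3 had 0.72, 0.56 and 0.80 FPKM in siPHF20L1 libraries, against 1.00, 1.16 and 0.99 FPKM in siControl libraries. The groups did not overlap, but only 2 libraries reached 1 FPKM, so it was not tested. With no filter its log2 difference was -0.28 (limma, adjusted p = 0.01623). Its annotated exons share 507 bases on the same strand with the readthrough transcript ANKHD1-EIF4EBP3, so these values may include fragments of that transcript. EIF4EBP1 and EIF4EBP2 together stood at 22.7 ± 3.48 times the level of EIF4E in siPHF20L1 and 24.3 ± 4.07 times in siControl libraries (SD, n = 3 each), and these ratios overlapped (exact permutation test, p = 0.5).

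Of the 5 late factors, 1 was higher, 1 lower and 3 did not pass. Here too 40% passed, beside 58.6% of all tested genes. EIF5A2, the tissue-restricted isoform of eIF5A that is amplified in some tumours, had 2.48, 2.12 and 2.16 FPKM in siPHF20L1 libraries, against 7.13, 5.77 and 5.49 FPKM in siControl libraries. It was lower in every library, with a log2 difference of -1.13 (SE 0.10, limma, adjusted p = 2.916e-05) that understates the 2.72-fold ratio of the means because of the pseudocount of 1. EIF5A, the common isoform, had 522, 541 and 532 FPKM in siPHF20L1 libraries, against 459.9, 479 and 494 FPKM in siControl libraries. The groups did not overlap, and it passed narrowly (log2 difference 0.16, SE 0.06, limma, adjusted p = 0.04375). Its exons share 241 bases with GPS2 on the opposite strand. The EIF5A call was lost when any 1 library was left out, with adjusted p (limma) of 0.05 without siPHF20L1 1, 0.1425 without siPHF20L1 2, 0.1198 without siPHF20L1 3, 0.07958 without siControl 1, 0.1079 without siControl 2 and 0.06728 without siControl 3. EIF5A was 237 ± 23.6 times as abundant as EIF5A2 in siPHF20L1 and 79.2 ± 13.1 times in siControl libraries (SD, n = 3 each; exact permutation test, p = 0.1, the smallest possible).

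EIF5AL1, a near-identical copy of EIF5A whose reads may be shared with it, averaged 2.90 ± 0.326 FPKM in siPHF20L1 and 3.01 ± 0.218 FPKM in siControl libraries (SD, n = 3 each; limma, adjusted p = 0.7164). EIF5B, the GTPase that joins the subunits, averaged 44.9 ± 6.19 FPKM in siPHF20L1 and 39.6 ± 2.80 FPKM in siControl libraries (SD, n = 3 each; limma, adjusted p = 0.1637), and passed with the block (limma, adjusted p = 0.005716). EIF6, which keeps large subunits from joining too early, averaged 221 ± 23.9 FPKM in siPHF20L1 and 227 ± 22.0 FPKM in siControl libraries (SD, n = 3 each; limma, adjusted p = 0.7393). In these 3 genes the groups overlapped. EIF5B shares 852 exonic bases with REV1 on the opposite strand.

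The eIF genes were also read against 3′ UTR words. The words CAAGAT and TAAGGA were picked in earlier work on these same data, so they are no independent evidence of a direction. Of the eIF genes with a GENCODE 3′ UTR, 10 of 17 that were lower held either word (58.8%), 4 of 11 that were higher (36.4%) and 7 of 18 that did not pass (38.9%). Over all tested genes with a 3′ UTR the shares were 57.7%, 44.9% and 47.0%. The shares of the eIF genes were thus ordered like those of all genes, at small numbers. The median 3′ UTR length was 1432 bases for lower and 653 bases for higher eIF genes, and longer sequences can hold more words. Over all tested genes it was 1490 bases for lower, 1398 bases for higher and 1311 bases for those that did not pass. Whether length accounts for the shares was not tested.

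The windows of EIF2S2, the eIF gene with the lowest log2 difference, are shown as an example, with that of EIF2A and, for contrast, that of EIF3F, which was higher and also holds a word. Each is 30 bases of the longest annotated 3′ UTR in GENCODE release 29, written 5′ to 3′, with the word in capitals, and the number in each name is the first base of the word counted from the base after the stop codon.
EIF2S2 89: ttgtattaaaaaCAAGATaaaaaagctgcc
EIF2S2 106: taaaaaagctgcCAAGATttttggcgagtg
EIF2S2 216: cgtgatatggggTAAGGAggtgctttttta
EIF2S2 261: ttctgtaaaatgCAAGATaaattaaagtta
EIF2A 127: taaccatttatcCAAGATtctactaagtgt
EIF3F 3230: cctgggtgacagCAAGATcctttctcaaga
EIF2S2 holds its 4 words within 1432 bases, EIF5A2 4 within 4945 bases and EIF2A 1 within 331 bases. EIF3F holds 1 within 5840 bases, and EIF4A1 holds none within 619 bases. EIF4E holds 5 within 9344 bases and did not pass the test.

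Genes around the factors were described by lists. Of 15 tested genes around the phosphorylation of eIF2 (its kinases, its phosphatase and the ATF4 axis), 8 were higher (53.3%), 3 lower (20%) and 4 did not pass. Over all tested genes 34.0% were higher and 24.7% lower. The list passed in 73.3% of its genes, beside 58.6% of all tested genes, and its median log2 difference was 0.18, beside 0.05. The 4 lists that follow passed in 50% to 69.2% of their genes. DDIT3 and TRIB3, genes switched on through ATF4, averaged 17.7 ± 1.98 and 20.5 ± 3.20 FPKM in siPHF20L1, against 5.27 ± 1.47 and 5.93 ± 0.644 FPKM in siControl libraries (SD, n = 3 each; limma, adjusted p = 4.751e-05 and 1e-05). PPP1R15A, the stress-induced subunit that directs the phosphatase to eIF2, had 108, 108 and 111 FPKM in siPHF20L1 libraries, against 50.1, 55.5 and 53.5 FPKM in siControl libraries (log2 difference 1.03, limma, adjusted p = 2.309e-06). ATF4, whose translation increases when eIF2 is phosphorylated, had 212, 222 and 213 FPKM in siPHF20L1 libraries, against 109.9, 122 and 116.3 FPKM in siControl libraries (log2 difference 0.89, limma, adjusted p = 5.673e-06). None of the 4 genes overlapped between groups, as held for 63.7% of all tested genes.

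The catalytic subunits of the phosphatase did not move together. PPP1CB averaged 24.8 ± 2.20 FPKM in siPHF20L1 and 15.04 ± 2.32 FPKM in siControl libraries and was higher (SD, n = 3 each; log2 difference 0.69, limma, adjusted p = 0.0006491), while PPP1CA and PPP1CC were lower. PPP1CA averaged 106.2 ± 6.14 FPKM in siPHF20L1 and 156.3 ± 10.6 FPKM in siControl libraries (SD, n = 3 each; log2 difference -0.55, limma, adjusted p = 0.0002063). PPP1CC averaged 72.9 ± 2.99 FPKM in siPHF20L1 and 86.3 ± 7.05 FPKM in siControl libraries (SD, n = 3 each; log2 difference -0.24, limma, adjusted p = 0.01697). The PPP1CC call was lost without siPHF20L1 2 (limma, adjusted p = 0.06162) and without siPHF20L1 3 (limma, adjusted p = 0.06207). GCN1, the activator of the kinase GCN2, averaged 35.5 ± 0.567 FPKM in siPHF20L1 and 43.2 ± 1.66 FPKM in siControl libraries (SD, n = 3 each; log2 difference -0.27, limma, adjusted p = 0.002442). Phosphorylation of eIF2 was not measured.

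Among all tested genes 34.0% were higher and 24.7% lower. Of 18 tested partners and regulators of the cap complex, 4 were higher (22.2%), 5 lower (27.8%) and 9 did not pass, with a median of -0.08. MKNK2, a kinase that phosphorylates eIF4E, had the largest difference among them, at 65.0, 71.1 and 74.6 FPKM in siPHF20L1 libraries against 16.3, 18.3 and 18.7 FPKM in siControl libraries. It was 3.96-fold higher (log2 difference 1.93, SE 0.08, limma, adjusted p = 5.821e-07). MKNK1, the other eIF4E kinase gene of the list, averaged 17.2 FPKM in siPHF20L1 and 15.4 FPKM in siControl libraries and did not pass (limma, adjusted p = 0.1188), though it did with the block (limma, adjusted p = 0.01298). CTIF, which binds the nuclear cap complex in the first round of translation, averaged 15.4 ± 0.963 FPKM in siPHF20L1 and 7.70 ± 0.201 FPKM in siControl libraries (SD, n = 3 each; limma, adjusted p = 1.086e-05). PABPC4, a poly(A)-binding protein, averaged 57.1 ± 1.45 FPKM in siPHF20L1 and 39.1 ± 1.38 FPKM in siControl libraries (SD, n = 3 each; limma, adjusted p = 5.781e-05).

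The lowest log2 differences of that list were those of LARP4B, DDX3X and NCBP2. LARP4B, which binds poly(A)-binding protein, averaged 10.6 ± 0.315 FPKM in siPHF20L1 and 17.4 ± 1.11 FPKM in siControl libraries (SD, n = 3 each; log2 difference -0.66, limma, adjusted p = 5.956e-05). DDX3X, a helicase that aids scanning, averaged 46.3 ± 4.06 FPKM in siPHF20L1 and 72.0 ± 9.23 FPKM in siControl libraries (SD, n = 3 each; log2 difference -0.62, limma, adjusted p = 0.0007032). NCBP2, a subunit of the nuclear cap-binding complex, averaged 39.5 ± 0.991 FPKM in siPHF20L1 and 57.4 ± 2.63 FPKM in siControl libraries (SD, n = 3 each; log2 difference -0.53, limma, adjusted p = 8.065e-05). None of these 3 genes overlapped between groups, as held for 63.7% of all tested genes. They were named because they passed, so this adds no separate support.

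Of 13 tested genes around mTORC1 (its subunits and regulators, with the S6 kinases, RPS6 and LARP1), 6 were higher (46.2%), 3 lower (23.1%) and 4 did not pass. Their median was 0.13. Without siControl 2, 3 were higher. Over all tested genes 34.0% were higher and 24.7% lower. LARP1, a repressor of mRNAs for ribosomal proteins, averaged 80.5 ± 4.09 FPKM in siPHF20L1 and 57.3 ± 3.87 FPKM in siControl libraries (SD, n = 3 each; log2 difference 0.49, limma, adjusted p = 0.0003328). MLST8 and AKT1S1, subunits of mTORC1, had log2 differences of 0.47 and 0.28 (limma, adjusted p = 0.007548 and 0.00395). RHEB, the GTPase that activates the kinase, averaged 78.6 ± 1.07 FPKM in siPHF20L1 and 117.2 ± 4.14 FPKM in siControl libraries (SD, n = 3 each; log2 difference -0.57, limma, adjusted p = 3.158e-05). RPS6KB1, the S6 kinase, and TSC2, the inhibitor of RHEB, had log2 differences of -0.34 and -0.32 (limma, adjusted p = 0.004166 and 0.01103).

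Of 8 tested genes for hypusination of eIF5A, reinitiation and recycling, 1 was higher (12.5%), 3 lower (37.5%) and 4 did not pass, with a median of -0.10. Without siPHF20L1 1, 2 were higher. Among all tested genes 34.0% were higher and 24.7% lower. DENR, which helps ribosomes to reinitiate, had 46.7, 42.2 and 42.3 FPKM in siPHF20L1 libraries, against 22.5, 20.3 and 18.2 FPKM in siControl libraries (log2 difference 1.07, limma, adjusted p = 1.354e-05). MCTS1, its partner in the same complex, averaged 4.04 FPKM in siPHF20L1 and 3.65 FPKM in siControl libraries and did not pass (limma, adjusted p = 0.411). ABCF1, an ATPase that binds eIF2, had 28.05, 27.08 and 28.04 FPKM in siPHF20L1 libraries, against 62.0, 65.8 and 63.8 FPKM in siControl libraries (log2 difference -1.17, limma, adjusted p = 1.004e-06). DHPS, which carries out the first step of the hypusine modification of eIF5A, averaged 32.2 ± 3.35 FPKM in siPHF20L1 and 44.1 ± 3.49 FPKM in siControl libraries (SD, n = 3 each; log2 difference -0.45, limma, adjusted p = 0.002608). BZW2, a mimic of eIF5, averaged 23.7 ± 0.647 FPKM in siPHF20L1 and 28.99 ± 1.07 FPKM in siControl libraries (SD, n = 3 each; log2 difference -0.28, limma, adjusted p = 0.002839).

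Among all tested genes 34.0% were higher and 24.7% lower. The list of elongation and termination factors also held the mitochondrial initiation factors MTIF2 and MTIF3. Of its 17 tested genes, 5 were higher (29.4%), 5 lower (29.4%) and 7 did not pass, with a median of 0.13. The count of higher genes was 9 with the replicate block, 2 without siPHF20L1 2 or without siPHF20L1 3, and 3 without siControl 2, and that of lower genes was 3 without siControl 2. MTIF2, a mitochondrial initiation factor, averaged 20.2 ± 2.01 FPKM in siPHF20L1 and 13.7 ± 1.02 FPKM in siControl libraries (SD, n = 3 each; log2 difference 0.53, limma, adjusted p = 0.0008203). ETF1, the release factor, and EEF2, the translocation factor, had log2 differences of 0.46 and 0.32 (limma, adjusted p = 0.0001193 and 0.02619). The EEF2 call was lost without siPHF20L1 2 (limma, adjusted p = 0.08783), siPHF20L1 3 (0.09716), siControl 1 (0.05756) or siControl 2 (0.05485). EEF1A2, an isoform of the tRNA-delivery factor, TSFM, a mitochondrial exchange factor, and EEF1B2, a cytosolic exchange subunit, had log2 differences of -0.37, -0.33 and -0.30 (limma, adjusted p = 0.02023, 0.003863 and 0.003779). The EEF1A2 call was lost without siControl 2 (limma, adjusted p = 0.07127) and without siControl 3 (limma, adjusted p = 0.06866).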

How the data were processed

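Per the file headers, the deposited values are FPKM per gene and library, computed by the authors with a method and annotation not given in the sources used here. TopHat2 2.1.1, Bowtie 0.12.2, HTSeq 0.6.0 and the build GRCh37 are listed, with no roles, per the submitters' processing notes. Per the labels' protocols, poly-A RNA went into a stranded kit; whether counting used strand is not given in the sources used here, and exons of 24 tested eIF genes overlap an opposite-strand gene in GENCODE release 29.

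Genes with FPKM of at least 1 in at least 3 libraries (11560 of 17452) were tested with limma 3.58.1 (R 4.3.3) on log2(FPKM + 1). The fit had an intensity trend and no block, and was two-sided, Benjamini-Hochberg adjusted over all genes tested, with a threshold of 0.05. It was tried on simulated data with independent noise in each library, which does not cover the spread that same-numbered libraries share. FPKM sums were 395250.9 to 416138.4 per library. Depth was read from the steps of low FPKM in short transcripts (up to 1500 bases); a multiple of such a step would fit as well, so depth is approximate. Deviations from the group means of same-numbered libraries correlated at 0.734, 0.436 and 0.419, all above the 0.1 set for pairing, though siPHF20L1 2 with siControl 3 gave 0.49. Between siPHF20L1 3 and siControl 2 the correlation was 0.307. The values thus set the number 1 apart from 2 and 3 but do not tell the pairing of 2 and 3. No label states a pairing, so results with the block rest on the numbers in the labels.

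Every eIF gene was named. From each other list, up to 3 genes in each direction with the largest absolute log2 difference among those past the threshold were named, plus ATF4; MKNK1, MCTS1 and PPP1CB were named after their values were seen. The eIF genes and lists were chosen with earlier results of these data known. Sequences came from RefSeq (GRCh38.p14 promoters, 41 eIF genes matched) and GENCODE 3′ UTRs (46 tested eIF genes). Alternatives were another pseudocount (0.1), other filters (none, or FPKM of at least 5), 3 scalings, no trend, the replicate block, subsets of libraries and leaving out each library in turn.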

Additional observations from a re-analysis of the deposited data

How the results depend on the processing

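No eIF gene past the threshold changed sign under any of the 16 tested alternatives or between the libraries numbered 1, and 7 of the 28 lost the threshold in at least 1 alternative, while 12 others gained it. With the libraries numbered 2 and 3 averaged, EIF2S3, EIF2B3, EIF2B5, EIF3D, EIF3J, EIF4A2 and EIF5A were lost, a setting with fewer values per group. With the replicate block 17 eIF genes were higher and 22 lower, and with the libraries numbered 2 and 3 only these counts were also 17 and 22. Apart from the genes named in the report, the block changed no call of an eIF gene. The median log2 difference of the eIF genes (-0.08) was -0.15 with median-ratio size factors and -0.13 with quantile normalization, and -0.1112 to -0.0553 when 1 library was left out. The median of all tested genes (0.05) moved with it, to -0.0173 with median-ratio size factors and -0.016 with quantile normalization. PHF20L1 had a log2 difference of -2.19 between the libraries numbered 1. Small differences that did not pass changed sign. EIF1AD was -0.0497 with median-ratio size factors, -0.0358 with quantile normalization, and -0.0074 to 0.0747 with 1 library left out (below 0 without siControl 2). EIF3C was -0.0731 with median-ratio size factors and -0.0402 to 0.0511 with 1 library left out (below 0 without siPHF20L1 2, siPHF20L1 3 or siControl 1). EIF4G1 was -0.041 with median-ratio size factors, although it passed with quantile normalization at 0.17 (limma, adjusted p = 0.02172). EIF5AL1 was -0.1076 to 0.0037 with 1 library left out (above 0 without siControl 1). EIF6 was 0.023 with quantile normalization and -0.1184 to 0.0509 with 1 library left out (above 0 without siPHF20L1 1 or siControl 3). The cause of these changes was not tested. EIF2S3, EIF4A2 and EIF5A were lost with median-ratio size factors, EIF2S3 also with quantile normalization, and EIF5A also with no filter and with no trend. EIF4ENIF1 passed with both of these scalings, with the filter at 5 FPKM and with no trend. Of the other named genes, TSC2 (limma, adjusted p = 0.05234), EEF1B2 (0.05868), EEF1A2 (0.0668), PPP1CC (0.0838) and EEF2 (0.1165) were lost with the libraries numbered 2 and 3 averaged. PPP1CC was also lost with quantile normalization (0.05491), and EEF2 with median-ratio size factors (0.1038) and with no filter (0.06074). EIF4E3 and EIF4EBP3 rest on few fragments. With 3 libraries per group an exact permutation test cannot give a p below 0.1.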
